A study of Mus musculus with 2 samples.

Results

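The respiratory chain of the inner mitochondrial membrane passes electrons from NADH and succinate to oxygen and pumps protons, and ATP synthase uses the proton gradient to make ATP. Most subunits of these complexes are encoded in the nucleus, translated in the cytosol and imported, while a small core set is encoded in mitochondrial DNA. The working heart draws most of its ATP from this system, and some complex IV subunits exist as a ubiquitous form and a form made mainly in heart and skeletal muscle.

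The genes described here are the nuclear-encoded subunit genes of complex I, complex III, complex IV and ATP synthase in single nuclei of mouse hearts. They were chosen by symbol (Nduf a, ab, b, c, s and v subunits, Uqcr, Cox4 to Cox8 and Atp5 genes), which matched 82 symbols. The pseudogene-named Ndufb1-ps and Ndufa4l2 were dropped, leaving 80 of the 32245 symbols in the files. Complex I holds 36 of them, complex III 8, complex IV 19 and ATP synthase 17. Ndufa4 carries a complex I name but was counted with complex IV, where its protein sits. The rule itself reads symbols only, though it was set with earlier results of these data known. All 80 genes were found in the GENCODE vM21 annotation of GRCm38, on 19 chromosomes.

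The study has 1 library per group. The CF-KI group was Tcf21-MerCreMer;Nlrp3-A350V/A350V and the control group Tcf21-MerCreMer;Nlrp3-WT/WT, so both carried a tamoxifen-inducible Cre under Tcf21, a gene of cardiac fibroblasts, and both received tamoxifen injections. NLRP3 is the sensor of an inflammasome, and the modified allele is a constitutively active form, silenced in cells without Cre according to the submitters. All mice were male C57Bl6/J of 3.5 months, the tissue was cardiac tissue without a named chamber, and how many animals gave each library is not given in the sources used here. Every difference below is therefore between these libraries: there is no replicate check, no p-value is given, and intervals are 95% intervals for counting error only.

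Unique molecular identifiers (UMIs, single counted RNA molecules) numbered 21603653 over 15077 CF-KI barcodes and 18040776 over 11257 control barcodes, with medians of 1115 and 1158 per barcode. Mitochondrially encoded RNA made up a median of 14.2% of a CF-KI barcode's UMIs, against 3.46% in control barcodes, so the CF-KI library stood apart before any gene was compared. Called doublets were 2286 CF-KI and 338 control barcodes, and 46 cell barcodes occurred in both libraries (0.305% and 0.409% of each). After doublet removal 12681 and 10858 nuclei remained, and 10 classes that reached 50 nuclei on both sides were compared. Their names end in -like since only marker RNA defines them. Nlrp3 had 6 UMIs in CF-KI fibroblast-like nuclei and 0 in the control, where 3 UMIs correspond to 0.725 CPM, and Tcf21 had 133 and 130 CPM. UMIs at the 3′ end do not read the changed codon and so do not check the allele. Levels are CPM, counts per 1e6 non-mitochondrial UMIs of a class and library.

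The subunit genes were higher in CF-KI in all 10 classes. In cardiomyocyte-like nuclei their UMIs summed to 33327 CPM in CF-KI (interval 33172 to 33483) and 10338 CPM in the control (10257 to 10420), a 3.22-fold difference. Fibroblast-like nuclei had 30482 and 10055 CPM, a 3.03-fold difference. The largest ratio was in endocardial-like nuclei, with 36064 and 10984 CPM (3.28-fold).

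Endothelial-like nuclei had the smallest ratio, 1.78-fold, from 33533 CPM against 18837 CPM in the control. Macrophage-like nuclei came next at 2.09-fold, with 20599.5 and 9869 CPM. The other classes lay between 2.47-fold in adipocyte-like and 2.75-fold in mesothelial-like nuclei. The order of the classes also differed between the libraries. In the control, endothelial-like and atrial cardiomyocyte-like nuclei stood highest (18837 and 18297 CPM), with counting intervals that overlapped, and cardiomyocyte-like nuclei ranked 6 of 10. In CF-KI, atrial cardiomyocyte-like nuclei stood highest at 46342 CPM, and cardiomyocyte-like and endothelial-like nuclei had overlapping intervals. Adipocyte-like nuclei were lowest in both, at 19667 and 7967 CPM.

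**Figure D1:**
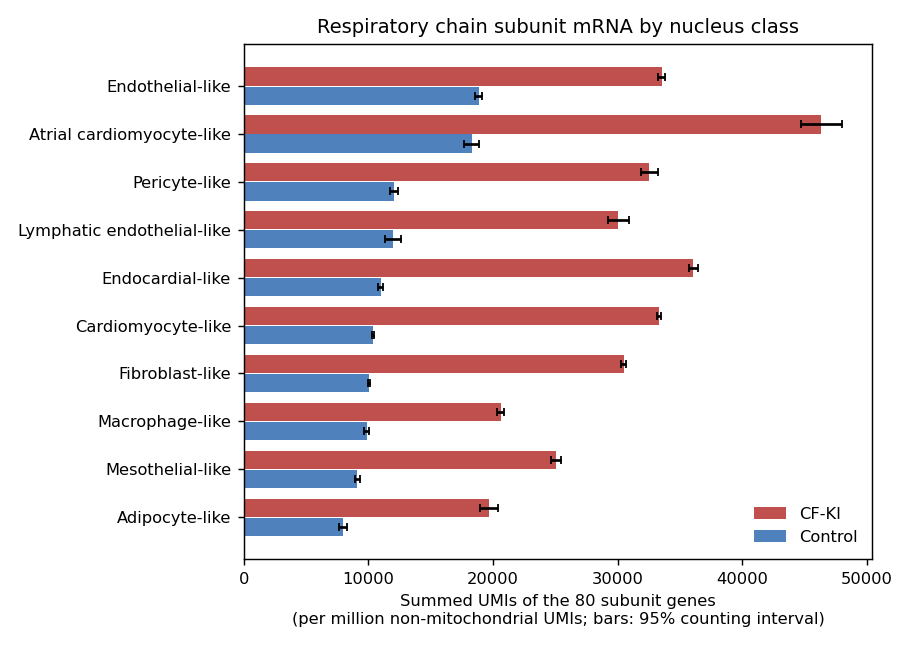
Summed level of the 80 subunit genes in CPM (x axis) in each of 10 nucleus classes (y axis, ordered by the control). Bars give the level in the CF-KI and control libraries and whiskers the 95% counting interval. In every class the CF-KI bar is longer, and the relative gap is smallest in endothelial-like nuclei (33533 against 18837).

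Several other measures also differed between the libraries. The median mitochondrial share of cardiomyocyte-like nuclei was 7.48% against 0.413% in the control, and that of fibroblast-like nuclei 15.9% and 5.91%. Cardiomyocyte markers, which nuclei of other classes should lack, summed to 11601 CPM in CF-KI fibroblast-like nuclei against 4271 CPM in control ones, and none of the 10 markers was at 0 in either. In endocardial-like nuclei, the class with the largest ratio, they summed to 14835 against 5495 CPM. Free RNA was estimated from such foreign markers, as the median of a marker's level in the class divided by its level over all nuclei of the library. This estimate was 48.3% and 23.5% in fibroblast-like, 41.6% and 33.5% in endothelial-like and 57.0% and 28.0% in endocardial-like nuclei. It was 62.7% and 34.5% in macrophage-like and 27.7% and 10.4% in cardiomyocyte-like nuclei. It is a relative marker level, not a measured fraction of free RNA. Cardiomyocyte-like nuclei, which count in the divisor, were 33.0% of CF-KI and 22.3% of control nuclei. Haemoglobin RNA, which belongs to red cells, was higher in CF-KI in 9 of the 10 classes, with 3295 against 461 CPM in cardiomyocyte-like, 3732 against 1574 CPM in fibroblast-like and 22808 against 687 CPM in lymphatic endothelial-like nuclei. In pericyte-like nuclei it was lower, with 1808 against 5363 CPM. Markers of the class itself were lower in CF-KI in fibroblast-like nuclei (25003 against 43153 CPM) and macrophage-like nuclei (4513 against 9333 CPM). They were also lower in endocardial-like (2582 against 3913 CPM), lymphatic endothelial-like, adipocyte-like and, by little, endothelial-like nuclei (8925 against 9340 CPM). They were higher in CF-KI in atrial cardiomyocyte-like (40785 against 19667 CPM), pericyte-like (11937 against 8407 CPM) and mesothelial-like nuclei (6060 against 5596 CPM). Over all cardiomyocyte-like nuclei they were close (46414 against 46505.5 CPM), but they were lower in CF-KI within each cluster of that class described below. They had 35715 against 43828 CPM in the low-mitochondrial cluster and 92290 against 102118 CPM in the high-mitochondrial cluster. The part of these measures in the difference was not tested. With free RNA of whole-library make-up subtracted, the log2 ratio of the summed level was 1.72 in cardiomyocyte-like, 1.56 in fibroblast-like and 0.54 in endothelial-like nuclei. In macrophage-like nuclei it turned to -1.44. In this step gene values below 0 were set to 0 in every class, and the estimate used was largest in CF-KI macrophage-like nuclei (62.7%). The value -1.44 compares what remained. Why its sign differs from that of the measured levels was not tested.

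Member by member, the difference was shared by almost every gene with enough UMIs. Of the 80 genes, 77 had at least 50 UMIs in cardiomyocyte-like nuclei of both libraries together, and all 77 were past 1.5-fold higher in CF-KI, where 27.7% of the 10392 genes tested were. Their median log2 ratio was 1.73, beside 0.17 for all genes tested. Cox6b2 (18 and 12 UMIs), Cox7b2 (2 and 2) and Cox8c (0 in both), the forms best known from testis, fell below the minimum. Ratios below are log2 of CF-KI over control. Many of these genes have processed pseudogenes or near copies elsewhere in the genome, and how reads with several matches were treated is not given in the sources used here, so single values carry that uncertainty. For counts and medians 0.5 UMIs were added to each count.

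In complex I, the NADH dehydrogenase, the 36 genes had a median log2 ratio of 1.70 in cardiomyocyte-like nuclei. Its nuclear-encoded catalytic core, the 7 subunits that carry the flavin and the iron-sulfur clusters or bind ubiquinone, ranged from 1.00 to 1.95. Ndufs1, the large iron-sulfur subunit, was lowest of these with 229 CPM in CF-KI and 114 in the control (interval of the log2 ratio 0.87 to 1.14). Ndufv2, a flavoprotein-module subunit, was highest with 200 and 51.8 CPM (1.77 to 2.14), and Ndufs8 followed with 433 and 131 UMIs (1.90). Among the accessory subunits the spread was wider. Ndufa10 had the smallest shift of the complex, with 370 and 221 CPM (log2 ratio 0.74, interval 0.64 to 0.84), and Ndufa1 the largest, with 187 and 40.1 CPM (2.22, 2.01 to 2.43). Ndufa7 followed at 209 and 48.3 CPM (2.11).

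In complex III, which passes electrons from ubiquinol to cytochrome c, the 8 genes had a median of 1.86. The lowest were the core subunit Uqcrc1 with 223 and 86.8 CPM (1.36) and Uqcrfs1, the Rieske iron-sulfur protein, with 258 and 96.0 CPM (1.43). The highest were the small subunits Uqcrb with 497 and 111 CPM (2.17) and Uqcr11 with 515 and 120 CPM (2.10). Core and small subunits overlapped in between, with the core subunit Uqcrc2 at 275 and 79.2 CPM (1.79) and the small subunit Uqcr10 at 324 and 97.8 CPM (1.73). The intervals of Uqcrc1 (1.21 to 1.51) and Uqcrb (2.04 to 2.29) lay apart.

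Complex IV, cytochrome c oxidase, held the widest range. Cox7a1, the heart and muscle form of subunit 7a, had the largest log2 ratio of all members in cardiomyocyte-like nuclei, 2.36 (2.22 to 2.51), from 404 and 78.6 CPM. Ndufa4 was close behind with 959 and 208 CPM (2.21). At the other end were Cox7a2l, a supercomplex factor, with 96.0 and 52.3 CPM (0.88) and Cox4i2 with 31 and 19 UMIs (0.88, interval 0.01 to 1.78). The ATP synthase genes ranged from 1.07 to 1.99, with a median of 1.66. The 4 peripheral stalk genes Atp5f1, Atp5h, Atp5j and Atp5o ranged only from 1.66 to 1.84. The catalytic Atp5b had 1216 and 437 CPM (1.48) and Atp5a1 1044 and 427 CPM (1.29), while Atp5md reached 1.99 and Atp5g2, one of 3 genes for the c subunit of the rotor ring, 1.07.

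In fibroblast-like nuclei, the class in which the driver is meant to act, 76 of 77 members were past 1.5-fold higher in CF-KI and 0 lower, beside 9.96% and 7.73% of 10760 genes tested, and the median was 1.55 against -0.03 for all genes. The exception was Cox6a1, the ubiquitous form of subunit 6a, with 135 and 116 CPM (0.22, 0.03 to 0.41). Both ends of the order belonged to complex IV: Cox7a1 had 352 CPM against 60.2 CPM in the control (2.55), and Cox6a2, the muscle form of subunit 6a, 954 and 189 CPM (2.33). By complex, the medians were 1.35 for complex I, 1.75 for complex III, 1.66 for complex IV and 1.63 for ATP synthase. In complex I the lowest were Ndufv1, which holds the flavin, and Ndufa10 (both 1.07), and the highest Ndufb5 (1.93) and Ndufs6 (1.90). In complex III Uqcrc1 (1.34) and Uqcrfs1 (1.37) were again lowest and Uqcrb (1.96) highest. In ATP synthase the c subunit genes lay at opposite ends, with Atp5g2 at 0.59 and Atp5g1 at 1.95, next to Atp5md, the highest of the complex. The fibroblast-like class was made of 3 clusters that the libraries filled unequally, cluster 1 with 2802 CF-KI and 179 control nuclei, cluster 2 with 298 and 2635, and cluster 7 with 647 and 761. Within each cluster the summed level was higher in CF-KI, by a log2 ratio of 1.27, 1.47 and 1.18. Cardiomyocyte markers were also higher in CF-KI in each, with 13539 and 10859 CPM in cluster 1, 9424 and 4515 in cluster 2, and 7521 and 2986 in cluster 7.

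In endothelial-like nuclei 60 of 77 members were past 1.5-fold higher, beside 7.19% of 7398 genes, with a median of 0.82. Of the complex I catalytic core, 2 of 7 were. Atp5g2 had 237 and 231 CPM (0.04, interval -0.19 to 0.27), Cox7a2l 256 and 245 CPM (0.06, -0.16 to 0.29), and Ndufc2 313 and 282 CPM (0.15, -0.06 to 0.36), so these genes did not differ beyond counting error. Cox7a1 (1.64) and Cox6a2 (1.51) were again highest in complex IV, and Ndufb2 (1.38) and Ndufa11 (1.32) in complex I. The ratio also differed between the clusters of this class: the summed level had a log2 ratio of 0.59 in cluster 6 (1030 and 417 nuclei) and 1.60 in cluster 9 (411 and 467). In cluster 9 cardiomyocyte markers summed to 19822 CPM against 8531 CPM in the control, and in cluster 6 to 10253 and 6456.

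In macrophage-like nuclei 73 of 76 members were past 1.5-fold higher, beside 13.6% of 6720 genes, with a median of 0.99. The 3 others were Cox6a1 (0.22), Cox7a2l (0.29) and Atp5g2 (0.54), and the intervals of Cox6a1 and Cox7a2l included 0. Cox7a1 (1.60) and Ndufa4 (1.52) led complex IV there. In complex I the ratios ran from 0.62 (Ndufa10) to 1.41 (Ndufb5), and all 7 genes of the catalytic core were past 1.5-fold higher. In complex III Uqcrc1 (0.77) was lowest and Uqcr11 (1.49) highest, and in ATP synthase Atp5g1 (1.48) and Atp5c1 (1.42), the central stalk subunit, were highest.

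In the other 6 classes between 50 and 77 members had enough UMIs. The members past 1.5-fold higher were 73 of 76 in endocardial-like (background 12.6% of genes higher and 9.33% lower), 74 of 77 in mesothelial-like (15.9% and 9.04%) and 75 of 77 in pericyte-like nuclei (28%). They were 53 of 55 in lymphatic endothelial-like (22.1%), 52 of 54 in atrial cardiomyocyte-like (40.4%) and 46 of 50 in adipocyte-like nuclei (17.1%). Over all nuclei together, classes aside, 75 of 78 were, beside 9.23% of genes, with a median of 1.49. Over the 10 classes this came to 659 of 696 pairs of a member and a class, where the share of all genes past 1.5-fold higher ran from 7.19% to 40.4% between classes. Of the 696 ratios, 693 were above 0. No pair was past 1.5-fold lower, where the share of all genes past that limit ran from 6.88% to 19.8% between classes. Of the 44 members tested in every class, 37 were past 1.5-fold higher in each. The same share over all genes tested in every class was not computed, so this count has no background beside it. The heat map of ratios shows the 3 ratios below 0, Cox4i2 in endothelial-like (-0.20), Ndufb2 in adipocyte-like (-0.11) and Cox6a1 in endocardial-like nuclei (-0.00142).

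**Figure D2:**
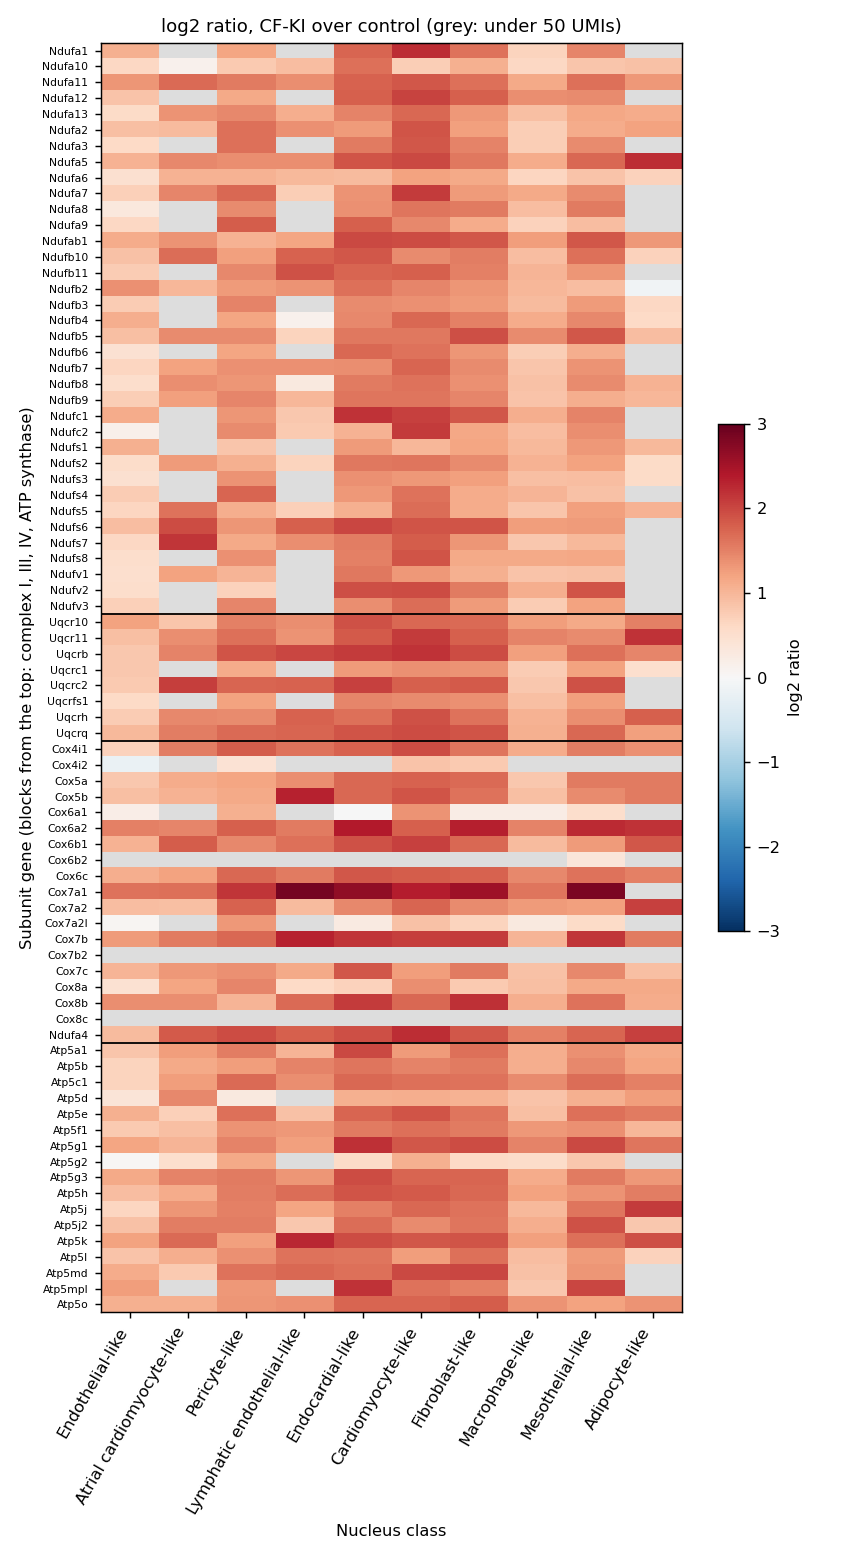
Log2 ratio of CF-KI over control (colour) for each of the 80 subunit genes (y axis, in blocks for complex I, III, IV and ATP synthase) in 10 nucleus classes (x axis, ordered by the control's summed level), with 0.5 UMIs added and grey where the libraries together had under 50 UMIs. Almost all cells are red (higher in CF-KI), the endothelial-like column is palest, and the rows of Cox6a1, Cox7a2l and Atp5g2 are paler than their neighbours while that of Cox7a1 is darkest.

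**Figure D3:**
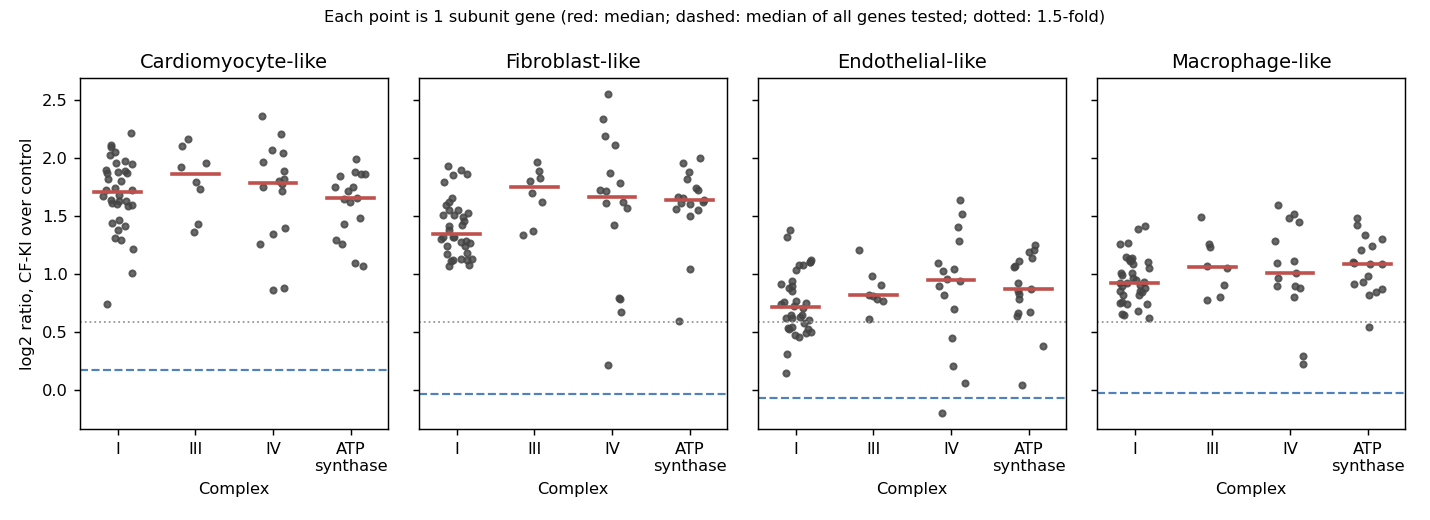
Log2 ratio of CF-KI over control (y axis) for each subunit gene (points) by complex (x axis) in 4 classes, with the complex median in red, the median of all genes tested dashed and 1.5-fold dotted. The member medians of the classes are 1.73, 1.55, 0.82 and 0.99, and complex IV has the widest spread in fibroblast-like nuclei.

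The complexes did not shift by quite the same factor. In cardiomyocyte-like nuclei complex I made up 29.99% of the members' UMIs against 31.25% in the control, a log2 odds ratio against the other members of -0.09 (-0.11 to -0.06). ATP synthase also fell behind, with 29.4% and 31.6% (-0.15), while complex III (9.47% and 8.40%, 0.19) and complex IV (31.2% and 28.7%, 0.17) gained share. Complex I lost share in 9 of 10 classes, with the interval below 0 in all 9, and the exception was atrial cardiomyocyte-like nuclei (0.09, interval -0.06 to 0.24). With Ndufa4 counted in complex I instead, the cardiomyocyte-like value of complex I was -0.026 with an interval that included 0 (-0.054 to 0.0023), and that of complex IV was 0.11. With Ndufa4 in complex IV, complex IV gained share in all 10 classes, with the interval above 0 in 8, and complex III in all 10, with the interval above 0 in 5. For ATP synthase the direction varied: it was below 0 in 4 classes and above in 6. These differences in make-up were small beside the 3.22-fold difference of the sum.

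The difference varied with the mitochondrial share of the nuclei in cardiomyocyte-like nuclei and little in fibroblast-like nuclei. Cardiomyocyte-like nuclei fell into 2 clusters. In the low-mitochondrial cluster (2396 CF-KI and 2174 control nuclei, median shares 3.59% and 0.361%) the subunit genes had 18888 CPM in CF-KI and 6836 in the control, a log2 ratio of 1.47. There 76 of 76 members tested were past 1.5-fold higher and 0 lower, beside 20.9% and 6.19% of genes. In the high-mitochondrial cluster (1790 and 244 nuclei, median shares 65.2% and 50.9%) they had 95239 and 83081 CPM, a log2 ratio of 0.20 (0.18 to 0.22). Only 2 of 76 members, Ndufa7 (0.83) and Ndufc2 (0.63), were past 1.5-fold higher there, beside 13.5% of 3573 genes, and Atp5g2 stood at -0.50 (-0.78 to -0.21).

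The high-mitochondrial cluster itself carried far more subunit mRNA than the low one within the same library. The ratio of the clusters was 5.04-fold in CF-KI and 12.2-fold in the control, and all 76 members tested were higher in it in both libraries. The share of all genes higher in it was not computed, so whether this count is particular to the members is not known. By member the ratio ran from 1.94-fold to 6.60-fold in CF-KI and from 3.31-fold (Ndufa10) to 21.7-fold (Ndufs6) in the control. Cytosolic ribosomal protein genes (4.38-fold and 10.6-fold) and a list of 10 short cardiomyocyte mRNAs such as Mb and Myl2 (4.24-fold and 9.48-fold) differed by similar factors. Assembly factors of the complexes did not (1.10-fold and 1.54-fold), and regulators of mitochondrial genes were lower in it (0.529-fold and 0.546-fold).

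When nuclei were binned by mitochondrial share, the log2 ratio of the summed level in cardiomyocyte-like nuclei was 1.39 under 5%, -0.09 from 5 to 10%, -0.25 from 10 to 20% and 0.29 above 20%. The control had only 40 and 41 nuclei in the middle bins, against 618 and 266 in CF-KI. Under 5% the libraries still differed in where their nuclei lay, since 1366 control but 17 CF-KI nuclei were under 0.5%. In the 6 narrower bins under 5%, which were chosen after the data were seen, the log2 ratio ran from 0.36 to 1.02. The bin with the value 0.36 (4 to 5%) held 14 control nuclei, and that with 1.02 (3 to 4%) held 24. From 0.5 to 1%, 1 to 2% and 2 to 3% the values were 1.00, 0.80 and 0.60, with 423, 220 and 71 control nuclei.

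In fibroblast-like nuclei the log2 ratio was 1.46, 1.46, 1.48 and 1.34 across the same 4 bins, so the libraries differed about equally at each mitochondrial share. In endothelial-like nuclei it was 0.45, 0.66, 0.58 and 0.41. Macrophage-like nuclei had 0.67, 0.66, 1.07 and 1.14. The bins under 5% held 60 CF-KI and 1453 control fibroblast-like nuclei, and 32 and 614 macrophage-like nuclei.

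**Figure D4:**
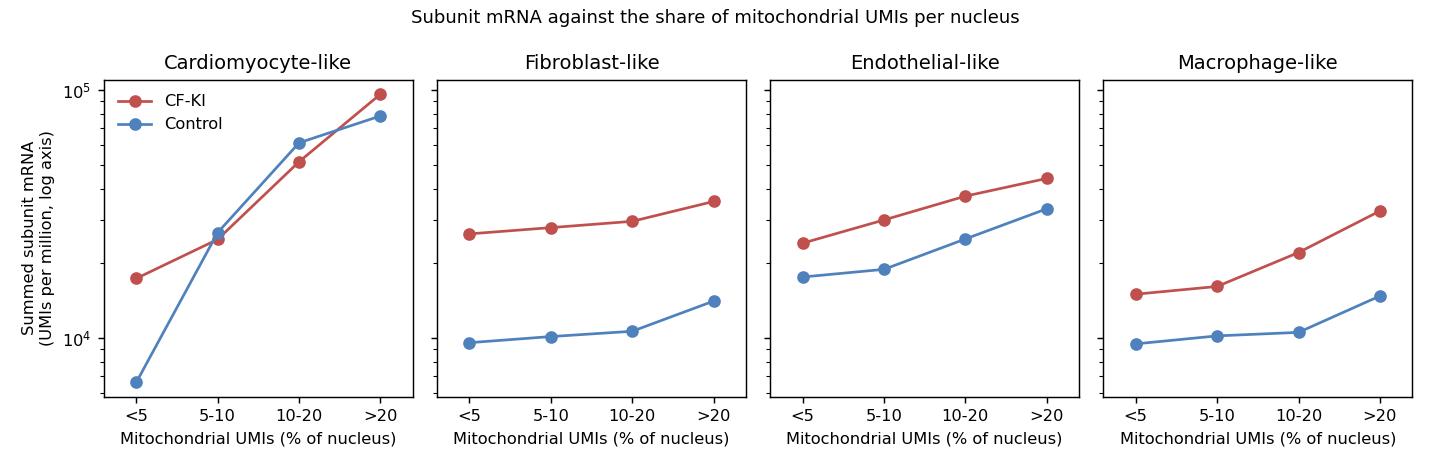
Summed level of the 80 subunit genes in CPM (y axis, log scale) against the mitochondrial share of the nuclei in 4 bins (x axis), for 4 classes in the CF-KI and control libraries. The cardiomyocyte-like lines meet from 5 to 20%, while the fibroblast-like lines run in parallel (log2 ratios from 1.34 to 1.48).

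Complex IV has paired genes for a muscle form and a ubiquitous form of subunits 6a, 7a and 8, and a second form of subunit 4, so the make-up of the complex can be read within a class. In cardiomyocyte-like nuclei Cox6a2, the muscle form, had 6556 UMIs and Cox6a1 419 in CF-KI, and 2118 and 186 in the control. The muscle form thus took 94.0% (93.4 to 94.5) and 91.9% (90.7 to 93.0) of the pair. Cox8b took 66.8% and 61.8% of the Cox8b and Cox8a UMIs, and Cox7a1 47.1% (45.6 to 48.6) and 36.8% (34.2 to 39.5) of the Cox7a1 and Cox7a2 UMIs. These are shares of 3′ UMIs, not of protein, and serve to compare classes and libraries. In the high-mitochondrial cluster the libraries were closer, with Cox7a1 at 48.1% and 44.5% and overlapping intervals.

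Outside cardiomyocyte-like nuclei the muscle forms were present too, and their share was higher in CF-KI. In fibroblast-like nuclei Cox6a2 took 87.6% of its pair in CF-KI and 62.0% in the control, Cox8b 57.9% and 34.3%, and Cox7a1 43.9% and 26.4%. Endothelial-like nuclei had lower shares, 73.6% and 52.9% for Cox6a2, 33.8% and 20.9% for Cox8b, and 32.9% and 23.1% for Cox7a1. The Cox6a2 share was higher in CF-KI in 10 of 10 classes, with intervals apart in 7, the Cox7a1 share in 10 of 10, with intervals apart in 6, and the Cox8b share in 8 of 10, with intervals apart in 4. Relative to cardiomyocyte-like nuclei of the same library, fibroblast-like nuclei held Cox6a2 at 77.3% of the level in CF-KI and 53.5% in the control, Cox8b at 84.8% and 61.0%, and Cox7a1 at 87.2% and 76.6%. The 10 short cardiomyocyte mRNAs stood at a median of 68.4% and 46.1% there. Their highest value in CF-KI was 85.0%, above those of Cox6a2 and Cox8b and below that of Cox7a1. In the control it was 56.9%, above that of Cox6a2 and below those of Cox8b and Cox7a1. In endothelial-like nuclei the order of the libraries was the other way, with Cox6a2 at 63.8% and 77.8%, Cox8b at 60.5% and 75.1%, Cox7a1 at 79.4% and 131%, and the short mRNAs at a median of 53.3% and 68.6%. The part of free cardiomyocyte RNA in the isoform shares was not tested.

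**Figure D5:**
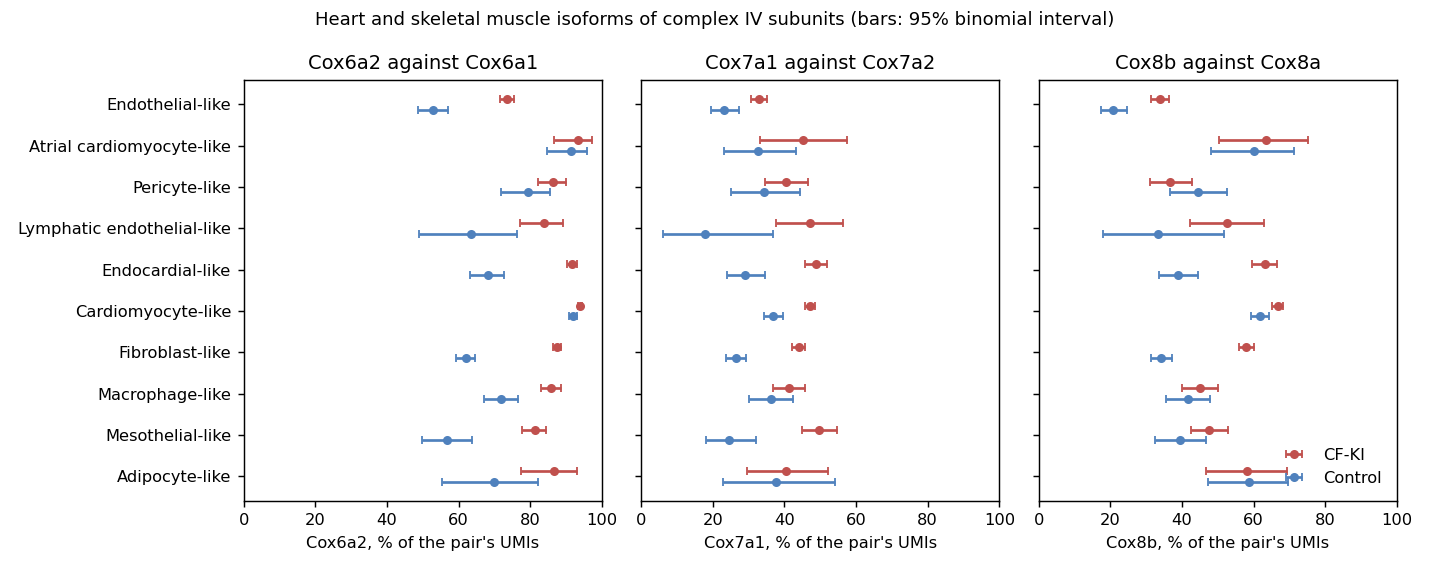
Share of the muscle form in the UMIs of each complex IV isoform pair (x axis, percent, with 95% binomial intervals) by nucleus class (y axis) in CF-KI and control. Cox6a2 lies at 94.0% and 91.9% in cardiomyocyte-like nuclei and at 87.6% and 62.0% in fibroblast-like nuclei, and the CF-KI points lie to the right in every class for Cox6a2 and Cox7a1.

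The ubiquitous forms moved less. Cox6a1 had 135 and 116 CPM in fibroblast-like, 283 and 245 CPM in endothelial-like and 105 and 90.3 CPM in macrophage-like nuclei, against 78.9 and 31.1 CPM in cardiomyocyte-like nuclei (1.34, 1.09 to 1.60). It was the member with the lowest ratio in fibroblast-like and macrophage-like nuclei. Cox8a had 287 and 166 CPM in fibroblast-like nuclei (0.79) and Cox7a2 449 and 167 CPM (1.42).

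Cox4i2, a subunit 4 form known from lung and vessel walls and from the response to low oxygen, was highest in pericyte-like nuclei. Pericyte-like nuclei had 342 CPM in CF-KI (279 to 414, 104 UMIs) and 254 CPM in the control (209 to 305, 111 UMIs), a log2 ratio of 0.43 (0.03 to 0.83). Endothelial-like nuclei followed with 82.8 and 95.04 CPM (-0.20, -0.58 to 0.18). In the other 8 classes it reached at most 19.0 CPM, and adipocyte-like nuclei had no UMI. In pericyte-like nuclei it took 16.6% (13.8 to 19.8) of the Cox4i2 and Cox4i1 UMIs, against 34.5% (29.3 to 39.9) in the control, and Cox4i1 itself stood at 1712 CPM against 482 CPM (1.83).

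The c subunit of ATP synthase is one protein made from 3 genes with different import sequences. Atp5g1 took 54.8% of their UMIs in CF-KI and 50.2% in control cardiomyocyte-like nuclei, Atp5g3 36.7% and 36.3%, and Atp5g2 8.50% (7.92 to 9.10) and 13.5% (12.3 to 14.8). The share of Atp5g2 was lower in CF-KI in all 10 classes. The gap was wide in endothelial-like nuclei, with 15.8% and 29.1%, and in fibroblast-like nuclei, with 9.70% and 20.6%.

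Because the members moved together, their promoters were compared. The RefSeq-based table for GRCm38.p6 held 70 promoters, from 250 bases before to 50 after the start, for 65 of the 80 genes. Exact motifs were searched on both strands, with overlap between motifs allowed. The NRF1 motif was in 5 of 70 member promoters (7.14%), those of Atp5g2, Atp5k, Cox6a1, Ndufa11 and Uqcrc1, and in 0.971% of all 32851 promoters. The ETS motif CCGGAAG was in 21.4% and 8.86%, the estrogen-related receptor motif AAGGTCA in 10% and 4.72%, and the E-box CANNTG in 68.6% and 72.3%. The MEF2 motif, searched as YTAWWWWTAR (Y for C or T, W for A or T, R for A or G), was in 0 of 70 and in 3.19% of all. At so low a share, 70 promoters are too few to read 0 as an absence. No promoter of Cox6a2 was among the 70. Median GC content was 57.2% in member promoters and 52.7% in all.

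The promoters printed here are those of isoform pairs described above, ubiquitous Cox6a1 and Cox7a2 and muscle-form Cox7a1 and Cox8b, and that of Atp5k, which holds the NRF1, ETS and estrogen-related receptor motifs together. Capitals mark matches to the NRF1, ETS, estrogen-related receptor and E-box motifs, and each sequence runs 5′ to 3′ on the gene's strand.
Cox6a1 (chr5:115348909-115349208, minus strand): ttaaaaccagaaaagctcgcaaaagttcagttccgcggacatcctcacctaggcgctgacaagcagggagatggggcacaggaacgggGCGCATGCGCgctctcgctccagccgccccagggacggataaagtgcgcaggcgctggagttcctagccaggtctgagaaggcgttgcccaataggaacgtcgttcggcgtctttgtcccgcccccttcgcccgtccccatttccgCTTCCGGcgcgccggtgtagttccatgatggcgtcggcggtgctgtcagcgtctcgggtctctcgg
Atp5k (chr5:108434350-108434649, minus strand): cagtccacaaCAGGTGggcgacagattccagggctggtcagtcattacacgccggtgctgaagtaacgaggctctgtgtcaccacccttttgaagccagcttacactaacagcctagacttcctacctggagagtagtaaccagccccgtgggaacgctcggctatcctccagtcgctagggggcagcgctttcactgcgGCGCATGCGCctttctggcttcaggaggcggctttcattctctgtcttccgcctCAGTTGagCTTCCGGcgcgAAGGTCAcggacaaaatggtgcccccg
Cox7a2 (chr9:79759804-79760103, minus strand): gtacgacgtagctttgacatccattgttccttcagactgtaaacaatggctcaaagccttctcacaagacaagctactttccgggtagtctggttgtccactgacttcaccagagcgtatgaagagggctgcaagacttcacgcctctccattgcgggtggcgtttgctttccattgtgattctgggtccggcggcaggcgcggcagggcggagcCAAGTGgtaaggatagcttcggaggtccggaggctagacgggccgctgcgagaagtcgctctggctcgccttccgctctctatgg
Cox7a1 (chr7:30183921-30184220, plus strand): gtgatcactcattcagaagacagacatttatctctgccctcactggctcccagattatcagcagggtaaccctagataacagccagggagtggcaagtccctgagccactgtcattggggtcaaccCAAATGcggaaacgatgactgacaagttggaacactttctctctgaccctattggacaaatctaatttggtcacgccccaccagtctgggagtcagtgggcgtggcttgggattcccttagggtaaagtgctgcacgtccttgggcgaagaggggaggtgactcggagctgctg
Cox8b (chr7:140900397-140900696, minus strand): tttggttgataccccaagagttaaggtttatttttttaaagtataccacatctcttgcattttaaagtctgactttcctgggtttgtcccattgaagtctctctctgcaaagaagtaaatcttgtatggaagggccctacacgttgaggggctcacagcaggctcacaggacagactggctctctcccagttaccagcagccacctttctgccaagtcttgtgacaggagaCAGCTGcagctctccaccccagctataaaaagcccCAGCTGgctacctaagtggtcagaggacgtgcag
Cox6a1 and Atp5k each hold 1 NRF1 and 1 ETS match, and ubiquitous Cox7a2 and the muscle-form genes Cox7a1 and Cox8b hold neither, with 1, 1 and 2 E-boxes. These matches describe the letters in the window. For the 5 NRF1-matched genes the median log2 ratio was taken over the classes in which each was tested. It was 0.22 for Cox6a1, 0.58 for Atp5g2, 1.15 for Uqcrc1, 1.61 for Ndufa11 and 1.78 for Atp5k. A link of the motif to the ratios was not tested.

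Genes that work with the subunits were compared next. Succinate dehydrogenase, complex II, is the other entry into the chain, and all 4 of its genes were past 1.5-fold higher in cardiomyocyte-like nuclei (median 1.28) and in fibroblast-like nuclei (1.15), beside 27.7% and 9.96% of all genes. Cytochrome c (Cycs) and cytochrome c1 (Cyc1) had log2 ratios of 1.19 and 1.49 in cardiomyocyte-like nuclei. The 13 mitochondrially encoded subunits, which are not nuclear transcripts, were measured per all UMIs and reached 281303 CPM in CF-KI against 56836.5 CPM in control cardiomyocyte-like nuclei, a log2 ratio of 2.31. In fibroblast-like nuclei they reached 169324 against 73774 CPM. Of the 13 TCA cycle genes, 9 were past 1.5-fold higher in cardiomyocyte-like nuclei, from Idh3b at 0.12 to Fh1 at 2.12, and 11 in fibroblast-like nuclei, beside the same shares of all genes.

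Assembly factors, which build the complexes but are not part of them, shifted less. In cardiomyocyte-like nuclei 18 of 35 were past 1.5-fold higher, with a median of 0.60, from Lyrm7 at -0.29 (interval -0.76 to 0.17) to Ndufaf2 at 1.87. In fibroblast-like nuclei 7 of 33 tested were, beside 9.96% of all genes, with a median of 0.28. Regulators of mitochondrial genes showed no common direction gene by gene: of 14, 2 were past 1.5-fold higher and 3 past 1.5-fold lower in cardiomyocyte-like nuclei, beside 27.7% and 6.88% of all genes. Their summed level there was lower in CF-KI, at 0.738-fold of the control (0.716 to 0.760). Ppargc1a, the coactivator that drives expression of many respiratory genes, had 703 CPM against 1092 CPM in the control (-0.63, -0.69 to -0.58). Ppargc1b had 105 and 159 CPM (-0.60), Nrf1 12.04 and 20.9 CPM (-0.79) and Esrra 138 and 169 CPM (-0.29), while Tfam, the packaging factor of mitochondrial DNA, had 22.8 and 8.69 CPM (1.39, 0.91 to 1.89). These regulator values are for cardiomyocyte-like nuclei. The summed regulators had 383 CPM in both libraries in fibroblast-like nuclei and 579 against 499 CPM in macrophage-like nuclei. Ppargc1a stood at 0.93 in macrophage-like nuclei, with 180 and 94.8 CPM (152 and 107 UMIs). Cardiomyocyte markers were also higher in CF-KI there, with 15840 against 6896 CPM.

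Cytosolic ribosomal protein genes, another family of short and abundant mRNAs, were set beside the members. In cardiomyocyte-like nuclei 79 of 81 were past 1.5-fold higher, with a median of 1.53, close to the members' 1.73. In fibroblast-like nuclei 23 of 81 were, with a median of 0.44 against the members' 1.55. The 10 short cardiomyocyte mRNAs had medians of 1.58 and 2.21 in the same classes, with Myl2 at 2.51 in fibroblast-like nuclei. Gene length was one feature the choice of members did not use: their median span was 7.19 kb and spliced length 0.645 kb, against 24.6 kb and 2.21 kb for all genes tested in cardiomyocyte-like nuclei. In that class the median of all genes was 0.43 for spans under 5 kb, 0.26 from 5 to 20 kb, 0.12 from 20 to 100 kb and 0.06 above 100 kb, and the members' medians in the same ranges were 1.85, 1.66, 1.65 and 1.64. The single member over 100 kb that reached the UMI minimum, Ndufs4, encodes a complex I subunit of the NADH-oxidising arm. The part of length in the shift was not tested.

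Within a library, cardiomyocyte-like and fibroblast-like nuclei had close levels of subunit mRNA. The log2 ratio of cardiomyocyte-like over fibroblast-like was 0.04 in the control and 0.13 in CF-KI, and it turned to -0.56 and -0.69 without the high-mitochondrial cluster and to 0.83 and 0.72 with TMM scaling. In the control 6 of 76 members were past 1.5-fold higher and 8 past 1.5-fold lower in cardiomyocyte-like nuclei, where 15.6% and 59% of all genes were. Ndufa10 (1.25), Cox6a2 (0.90) and Cox8b (0.71) were highest, and Cox6a1 (-1.90), Ndufc2 (-1.22), Ndufa7 (-0.94) and Cox8a (-0.92) lowest. In CF-KI 1 of 77 was past 1.5-fold higher, beside 14.4% of genes, again Ndufa10 (0.92), and 2 were lower, beside 51% of genes, Cox4i2 (-1.11) and Cox6a1 (-0.78). The spread between members was thus narrower in CF-KI, where the free-RNA estimate was also higher in both classes. The part of free RNA in this was not tested.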

How the data were processed

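Nuclear RNA was captured with 10x 3′ v3 chemistry, and the deposited values are UMI counts per gene and barcode, made by the authors with Cell Ranger 6.1.1 and mm10 per the submitters' processing notes. Whether intronic reads were counted is not given in the sources used here. Barcodes with at least 200 genes were kept and Scrublet doublets removed, with no mitochondrial limit. Both libraries were clustered together (scanpy 1.11.5, leidenalg 0.10.2, 2000 variable genes, 30 components, 15 neighbours, resolution 0.8). Variable genes did not include the subunit genes, the related lists, or mitochondrial, ribosomal and haemoglobin genes. Clusters were named from 19 marker lists.

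Counts were summed per library and class. With 1 library per group no test was possible. A gene was compared when its UMIs in the libraries came to 50 or more, and counted as past the limit at 1.5-fold, with 0.5 UMIs added. Intervals are exact Poisson for levels, conditional binomial for ratios and Clopper-Pearson for shares, all at 95%. A complex against the other members is a log2 odds ratio with a 95% Wald interval. The scripts were tested on simulated data. The members and lists were chosen with earlier results of these data known. Genes were named by a fixed rule, the 2 highest and 2 lowest ratios of each complex in a class, the isoform pairs, the c subunit genes, the complex I core, and the highest and lowest gene of each related list. Others were named after their values were seen. Alternatives were mitochondrial limits of 5% and 20%, doublets kept, other resolutions, UMI minimums and folds, TMM (edgeR 4.0.16) and median-of-ratios (DESeq2 1.42.0) scaling, subtraction of free RNA, and Ndufa4 placed in complex I. Leaving out the high-mitochondrial cardiomyocyte-like cluster and the narrow mitochondrial bins were chosen after seeing the data.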

Additional observations from a re-analysis of the deposited data

Results flagged for a closer look

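In 3 genes related to the subunits the CF-KI over control ratio had counting intervals on opposite sides of 0 in different classes. These differences between classes were not tested. Ttc19, an assembly factor of complex III, had a log2 ratio of -0.81 in endothelial-like, 0.19 in cardiomyocyte-like and 0.61 in macrophage-like nuclei. Ppargc1a had -1.35 in atrial cardiomyocyte-like, -0.63 in cardiomyocyte-like and 0.93 in macrophage-like nuclei. Perm1, a muscle regulator of mitochondrial genes, had -0.24 in cardiomyocyte-like, 0.84 in endocardial-like and 0.92 in fibroblast-like nuclei. In macrophage-like nuclei Ppargc1a had 152 and 107 UMIs, and in fibroblast-like nuclei Perm1 had 79 and 53. Cardiomyocyte markers were also higher in CF-KI in macrophage-like (15840 against 6896 CPM), endocardial-like (14835 against 5495 CPM) and fibroblast-like nuclei (11601 against 4271 CPM). The part of free RNA in these ratios was not tested. None of the 80 subunit genes met this condition in the 10 classes.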

How the results depend on the processing

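Of 37 alternative values of the summed CF-KI over control log2 ratio, 36 were above 0. In cardiomyocyte-like nuclei (1.69) it was 1.41 and 1.48 with mitochondrial limits of 5% and 20%, 1.48 with TMM and 1.52 with median-of-ratios scaling, 1.72 after subtraction of free RNA and 1.47 without the high-mitochondrial cluster. In fibroblast-like nuclei (1.60) it was 1.41 and 1.54 with the limits, 1.63 with doublets kept and 1.56 after subtraction. In endothelial-like nuclei (0.83) it was 0.36 and 0.80, 0.86 with doublets kept, 0.87 at resolution 1.5, 0.94 and 0.95 with the scalings and 0.54 after subtraction. In macrophage-like nuclei (1.06) it was 0.42 and 0.82, 1.10 at resolution 1.5 and -1.44 after subtraction. That last value compares what remained after subtraction with a free-RNA estimate of 62.7% in CF-KI and 34.5% in the control. The 5% limit left 52 CF-KI fibroblast-like and 27 macrophage-like nuclei. TMM shifted all log2 ratios by -0.21 in cardiomyocyte-like and 0.11 in endothelial-like nuclei.

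The cardiomyocyte-like over fibroblast-like ratio had no stable sign. In the control (0.04) it was -0.55 and -0.56 with the limits, -0.011 with doublets kept, 0.83 and 0.85 with the scalings, 0.075 after subtraction and -0.56 without the high-mitochondrial cluster. In CF-KI (0.13) the same settings gave -0.54, -0.62, 0.033, 0.72, 0.77, 0.24 and -0.69. With Ndufa4 in complex I, complex I stood at -0.026 and complex IV at 0.11 against the other members. The control share of Cox6a2 (91.9%) was 90.3% with either limit or without the cluster and 93.6% after subtraction, that of Cox7a1 (36.8%) 30.4%, 31.3% and 31.3%, and that of Cox8b (61.8%) 58.9% and 59.0%. The cause was not tested. No paired analysis was possible because each group holds 1 library, so the groups share a single replicate number and form 1 pair.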

Other observations

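Classes with under 50 nuclei in a library also held the subunit genes, and their values are given without comparison. Summed levels in CF-KI and control were 22542 and 10955 CPM in B cell-like nuclei (44 and 120 nuclei), 30296 and 12676 CPM in T or NK cell-like nuclei (32 and 36) and 41954 and 13923 CPM in platelet-like nuclei (85 and 13). Erythroid-like nuclei had 6810 and 6341 CPM, with 62 and 1 nuclei. Airway epithelial-like nuclei were found in the control alone (127 nuclei).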
